A study of Mus musculus with 4 samples.

Results

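Methylation was compared between the 2 strands of the same CpG in mouse embryonic stem cells (ES cells), in 2 libraries of Naa10-KO cells and 2 libraries of WT cells measured by reduced representation bisulfite sequencing. A CpG entered when both of its cytosines, at neighbouring positions, had at least 10 calls in all 4 libraries and no other cytosine was listed beside them. This left 527369 pairs on chromosomes 1 to 19. Their 1054738 cytosines make up 56.3% of the 1874113 autosomal cytosines with at least 10 calls in every library. Before the demand on neighbours there were 699016 adjacent positions, of which 171647 were left out. Both genotypes were grown in N2B27 medium with a Mek inhibitor, a Gsk3 inhibitor and LIF, on irradiated feeder cells that were removed some passages before harvest. Naa10 encodes the catalytic subunit of an N-alpha-acetyltransferase, which acetylates the first residue of proteins. The labels give neither the allele, the strain and sex of the cells nor whether the 2 libraries of a genotype come from separate clones or cultures, so the spread between them may be technical.

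A CpG reads the same on both strands, so each site offers 2 cytosines that can carry the mark. After DNA replication the new strand is unmethylated, and the maintenance methyltransferase Dnmt1, brought to such sites by Uhrf1, copies the mark from the old strand. ES cells grown with both inhibitors and LIF are known for low methylation. The levels measured here are averages over many molecules, so equal levels on both strands do not show that single molecules carried the mark on both.

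The libraries held 68929594 and 70594987 calls in KO cells, against 79540412 and 68586396 calls in WT cells. The median depth of a strand at the pairs was 28 to 30 calls in the KO libraries and 29 to 33 calls in the WT libraries. Pairs were spread over all autosomes, with 15176 on chromosome 16 and 44281 on chromosome 11. They lay close together: 73.0% had the next pair within 50 bp, with a median distance of 18 bp, so neighbouring pairs often share reads. In 147990 pairs (28.1%) no library held a methylated call, and no pair was without an unmethylated call.

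On average the strands were methylated to the same level in every library. Plus and minus follow the coordinates, so opposite strand differences at single pairs cancel in these means. The plus strand averaged 9.46% in KO replicate 1, 6.37% in KO replicate 2, 27.6% in WT replicate 1 and 27.6% in WT replicate 2. The minus strand averaged 9.45% and 6.37% in the KO libraries and 27.6% and 27.7% in the WT libraries. Each KO library was lower than either WT library on each strand, and the KO libraries differed more from each other than the WT libraries did. The mean difference, plus minus minus strand, was 0.0033 ± 0.00014 points in KO cells and 0.0050 ± 0.015 points in WT cells (SD, n = 2 each; two-sided exact permutation test, p = 1).

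As a mean over pairs, methylation was lower in KO cells by the same amount on both strands. Opposite strand differences cancel here too, so the means do not show equal changes on both strands of single CpGs. The plus strand averaged 7.92 ± 2.18% in KO cells and 27.6 ± 0.0060% in WT cells (SD, n = 2 each). The minus strand averaged 7.91 ± 2.18% in KO cells and 27.6 ± 0.021% in WT cells. The difference between KO and WT cells was -19.7 points on each strand (two-sided exact permutation test, p = 0.33, the smallest that 2 against 2 libraries can give). The pairs were less methylated than the other 819375 cytosines, which averaged 9.87 ± 2.76% in KO cells and 34.0 ± 0.023% in WT cells. The KO mean was 0.286 of the WT mean at pairs and 0.290 at the other cytosines.

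The lower level in KO cells was seen on both strands of single pairs. Each KO library was lower than either WT library on the plus strand at 214262 pairs (40.6%) and on the minus strand at 213996 pairs (40.6%). The share of single cytosines over all qualifying cytosines was 42.9%. Both strands were lower in this way at 195197 pairs (37.0%). Each KO library was higher than either WT library on the plus strand at 0.564% of pairs and on the minus strand at 0.580%. Over all qualifying cytosines the share of single cytosines above was 0.52%. Both strands were higher in this way at 146 pairs (0.0277%). Across 527369 pairs, the change on the plus strand followed that on the minus strand with a Pearson correlation of 0.954; the points share libraries and neighbouring reads. Over the 111184 pairs at 80% or more in WT replicate 1 it was 0.718. Pairs were also grouped by level in WT replicate 1 and read elsewhere. The mean KO minus WT change of the 2 strands then differed by at most 0.256 points in any bin. Opposite strand differences of single pairs cancel in these bin means. In the bin of 50 to 60%, KO replicate 1 held 14.6% on the plus and 14.5% on the minus strand, KO replicate 2 held 9.77% and 9.69%, and WT replicate 2 held 54.5% on each.

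**Figure D1:**
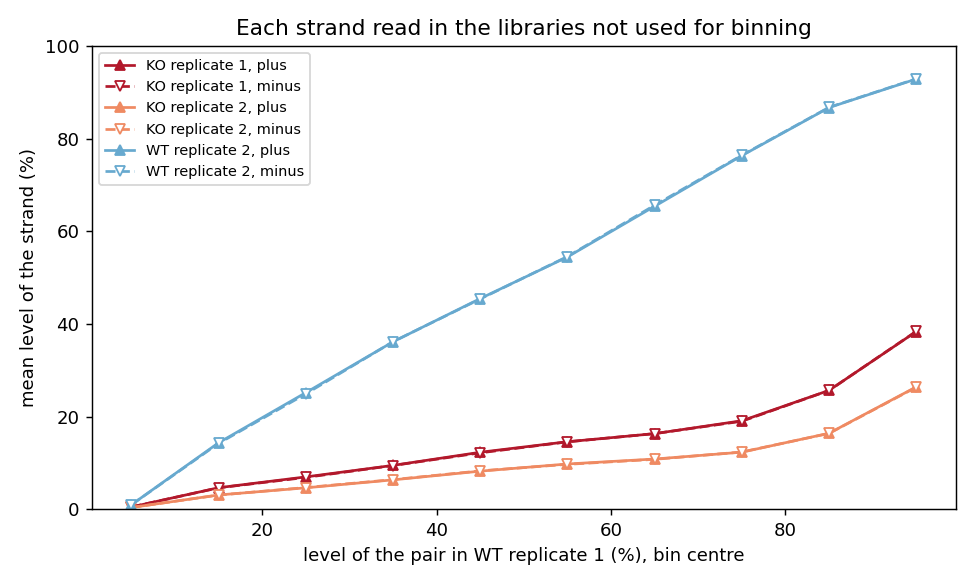
Mean methylation level of the plus strand (filled triangles, solid lines) and the minus strand (open triangles, dashed lines) in KO replicates 1 and 2 and WT replicate 2, in % on the vertical axis, against the level of the pair in WT replicate 1, in bins. The means of the 2 strands of a library lie on top of each other in every bin, and both KO libraries lie below the WT library. Opposite strand differences of single pairs cancel in these means.

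At single pairs the strands disagreed more in WT cells than counting alone gives, and less so in KO cells. The square of the strand difference was divided by the variance that counting gives at the same depth and level, so that 1 means counting error alone. This ratio was 1.32 and 1.27 in the KO libraries, against 2.34 and 2.17 in the WT libraries. The root mean square difference was 7.89 and 6.75 points in KO cells, where counting gives 6.88 and 5.99 points. It was 9.51 and 9.83 points in WT cells, where counting gives 6.21 and 6.67 points. The ratio averaged 1.29 ± 0.032 in KO cells and 2.25 ± 0.12 in WT cells (SD, n = 2 each; two-sided exact permutation test, p = 0.33). The Pearson correlation of the 2 strands over 527369 pairs was 0.885 and 0.841 in the KO libraries and 0.969 and 0.967 in the WT libraries. The points share libraries and neighbouring reads. The ratio and the correlation both depend on the levels, which were lower in KO cells. Neither compares the genotypes at equal levels.

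The disagreement in WT cells sat at intermediate levels. Below 5% the ratio was 1.07 and 1.08 in the KO libraries and 1.07 and 1.08 in the WT libraries. At 40 to 50% it was 1.31 and 1.28 in KO cells, against 4.80 and 4.08 in WT cells. The strand difference beyond counting had an SD of 7.79 and 7.41 points there in KO cells, against 25.1 and 24.4 points in WT cells. At 95 to 100%, a level that 27921 and 30005 pairs reached in the WT libraries, the WT ratio was 1.05 in each. Over 20 to 80% the ratio averaged 1.32 ± 0.027 in KO cells and 3.13 ± 0.22 in WT cells. A level bin does not hold the same pairs in KO and WT cells, since levels were lower in KO cells. The level of a pair also limits the strand difference it can show, so part of this order is fixed by the binning.

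**Figure D2:**
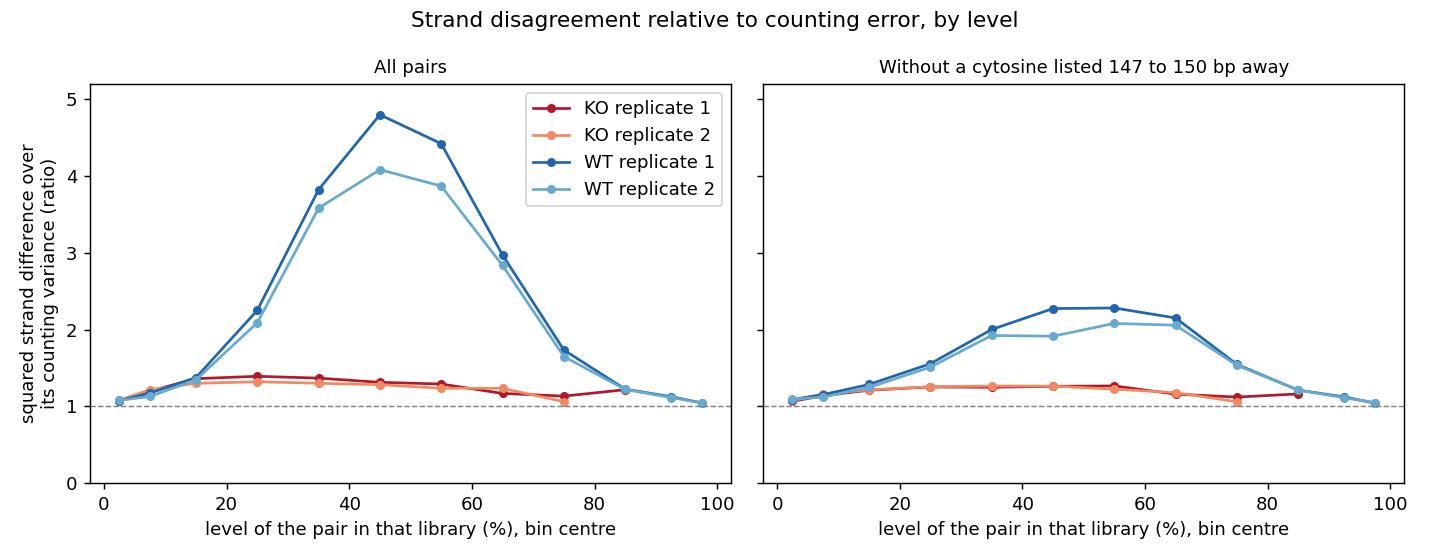
Squared strand difference over its counting variance (ratio, vertical axis) against the level of the pair in that library (%), for each KO and WT library, in bins with at least 100 pairs; the dashed line marks counting error alone. The WT libraries peak at 40 to 50% with 4.80 and 4.08 over all pairs (left) and keep lower peaks without pairs that have a cytosine listed 147 to 150 bp away (right), while the KO libraries stay below 1.4.

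Some CpGs in the WT libraries read as methylated on one strand and as unmethylated or nearly so on the other. Pairs with one strand at 80% or more and the other at 20% or less numbered 25 and 4 in the KO libraries, against 2085 and 2061 in the WT libraries. The lower strand held no methylated call in 20 and 0 of these pairs in KO cells and in 1741 and 1722 in WT cells. The higher strand was the plus strand in 11 and 3 of them in KO cells and in 1055 and 1039 in WT cells. Strand differences of 50 points or more made up 0.109% and 0.0375% of pairs in KO cells and 0.643% and 0.656% in WT cells. Few KO pairs were high at all. Both strands were at 80% or more in 360 and 63 pairs in the KO libraries, against 98739 and 97832 in the WT libraries. A cut at 80% therefore leaves few KO pairs to count. The ends of the MspI fragments were filled in with dGTP and dCTP before bisulfite conversion. The part of these filled-in bases in the strand differences was not tested, in KO or in WT cells.

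**Figure D3:**
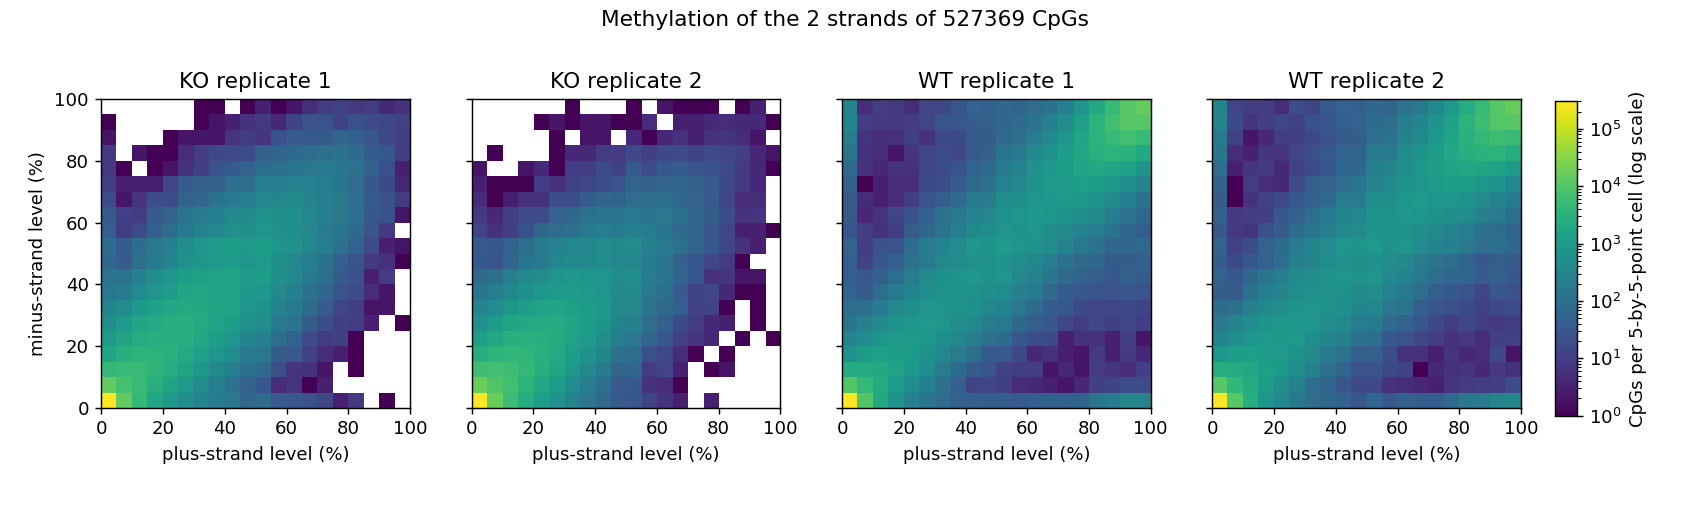
Number of CpGs (colour, log scale) by the level of the plus strand (horizontal axis, %) and of the minus strand (vertical axis, %) in cells of 5 by 5 points, for KO replicates 1 and 2 and WT replicates 1 and 2. Most CpGs lie along the diagonal; in the WT libraries a band also runs along the edges, where one strand is near 0 and the other is high.

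Other pairs of measurements give a scale for this disagreement. The same cytosine read in both libraries of a genotype gave ratios of 1.88 on the plus and 1.89 on the minus strand in KO cells, against 1.07 on each strand in WT cells. Between KO replicates the level itself differed, and between WT replicates cytosines differed little beyond counting. For 384982 neighbouring pairs within 50 bp, a cytosine and the opposite-strand cytosine of the next pair gave 2.66 and 2.43 in KO cells and 4.05 and 3.65 in WT cells. The 2 strands of 1 CpG among the same pairs gave 1.25 and 1.23 in KO cells and 1.72 and 1.63 in WT cells. In all 4 libraries the strands of a CpG were thus closer to each other than neighbouring CpGs were.

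The strand differences recurred from library to library. The mean product of the differences of 2 libraries keeps what both show, because their counting errors are independent. It was 9.49 squared points between the KO libraries, an SD of 3.08 points, against 50.3 squared points between the WT libraries, an SD of 7.09 points. Between a KO and a WT library it was 12.8 to 19.1 squared points. The correlation of strand differences over 527369 pairs was 0.178 between the KO libraries and 0.538 between the WT libraries. Products and correlations both depend on the levels, which were lower in KO cells. They do not show that strand differences were less shared in KO cells at equal levels.

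Pairs were then tested one by one with the quasi-likelihood test of edgeR, applied to the counts of both strands in one fit of all 4 libraries. A call needed a Benjamini-Hochberg adjusted p below 0.05 and a mean difference of at least 10 points. Of the 527369 pairs, 203642 had the 16 calls of the rarer state that a fit required, and the others counted as not called. In KO cells 742 pairs (0.141%) were called, 359 with the plus strand higher (0.0681%) and 383 with the minus strand higher (0.0726%). In WT cells 4479 pairs (0.849%) were called, 2219 with the plus strand higher (0.421%) and 2260 with the minus strand higher (0.429%). The numbers depend on the form of the test: the KO count ran between 0 and 1483 and the WT count between 3 and 5516 over the forms tried. The lowest counts, 0 in KO and 3 in WT cells, came from edgeR's newer quasi-likelihood form. The KO count was 95 without KO replicate 1 and 467 without KO replicate 2, and 409 and 401 without WT replicates 1 and 2. The WT count was 2420 without WT replicate 1 and 2646 without WT replicate 2.

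Pairs called in KO cells were for the most part called in WT cells too. Of the 742 KO calls, 738 were WT calls in the same direction, which is 99.5% of the KO calls and 16.5% of the WT calls, and 4 were called in KO cells alone. All libraries entered one fit, so these shares are not independent. At the 742 KO calls the higher strand averaged 48.9% and 34.8% in the KO libraries and 89.9% in each WT library. The lower strand averaged 0.819% and 0.780% in the KO libraries and 1.95% and 1.97% in the WT libraries. In 526 of the KO calls (70.9%) the lower strand held no methylated call in any library.

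At the 4479 WT calls the higher strand averaged 28.9% and 19.3% in the KO libraries, against 82.5% in each WT library. The lower strand averaged 5.55% and 3.78% in the KO libraries and 13.9% in each WT library. The lower strand thus held 19.2% and 19.6% of the level of the higher strand in KO cells and 16.8% and 16.9% in WT cells. These pairs were chosen on the WT difference, and the choice itself lowers the WT share. At the 742 KO calls, chosen on the KO difference, the shares were 1.67% and 2.24% in KO cells and 2.17% and 2.19% in WT cells. The KO libraries showed the WT direction at 4181 and 3953 of the 4479 WT calls. The median absolute difference was 39.6 points at the KO calls in KO cells and 72.7 points at the WT calls in WT cells. In 2239 WT calls (50.0%) the lower strand held no methylated call in any library.

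These WT calls fell into unlike classes. In the 2649 with a cytosine listed 147 to 150 bp away, the lower strand averaged 2.55% and 1.81% in the KO libraries and 6.63% and 6.57% in the WT libraries. In the 1830 without one it averaged 9.89% and 6.64% in the KO libraries and 24.4% and 24.5% in the WT libraries. The higher strand averaged 28.9% and 19.2% in KO and 83.5% and 83.4% in WT libraries in the first class, and 29.0% and 19.4% in KO and 81.0% and 81.3% in WT libraries in the second. The lower strand held no methylated call in any library in 61.4% of the first class and 33.5% of the second, and the median WT difference was 86.1 and 50.3 points. The KO calls differed less in these 2 measures. In the 607 with such a cytosine and the 135 without one, that share was 71.7% and 67.4%, and the median KO difference was 39.4 and 40.1 points. The mean of the lower strand did differ between these classes of KO calls. It was 0.556% and 0.634% in the KO libraries with such a cytosine and 2.00% and 1.43% without one. In the WT libraries it was 1.52% and 1.54% with one and 3.88% and 3.91% without.

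**Figure D4:**
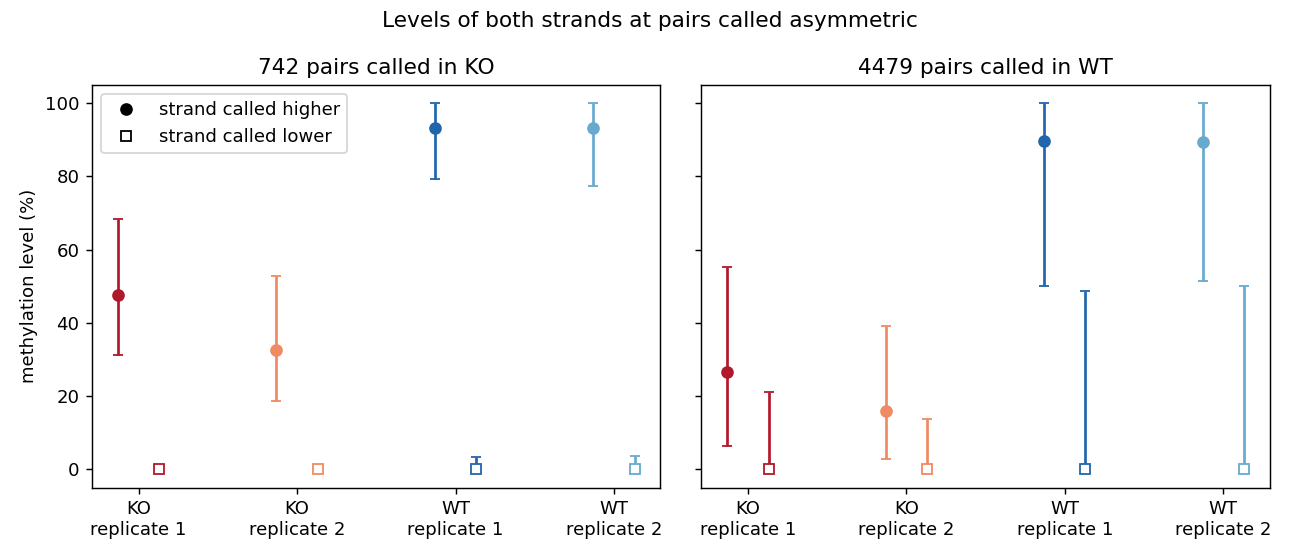
Methylation level (%, vertical axis) of the strand called higher (filled circles) and the strand called lower (open squares) in each KO and WT library, for the 742 pairs called in KO cells (left) and the 4479 pairs called in WT cells (right). Symbols are medians and bars run from the 10th to the 90th percentile of pairs; the higher strand has lower medians in KO than in WT libraries, and the median of the lower strand is 0 in every library.

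The difference of the strand effects between KO and WT cells, tested on the log-odds scale of the same edgeR fit, gave 0 calls (0%), with a lowest adjusted p of 1. At an unadjusted p below 0.05 there were 5083 pairs, 2.50% of those fitted. That is below the share that a cut of 0.05 passes on average where nothing differs, so low p-values were not in excess. limma on logit levels also gave 0 calls. A form of the edgeR fit with the methylated state per library gave 17 calls, all with a smaller strand difference in KO cells. That form also called unchanged pairs in simulated data. The simulation used an assumed spread and equal levels on both strands at most pairs, unlike real pairs with one strand at 0. It therefore cannot decide whether the 17 calls are false. The missing calls of the other forms do not show that the genotypes have the same strand differences at this depth. In 2239 WT calls and 526 KO calls the lower strand held no methylated call in any library. Its log-odds have no finite value there, so the contrast could not decide at those pairs.

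Libraries that took no part in the choice mostly showed the same direction. Fisher's exact test in 1 library, adjusted over all pairs, called 526 pairs (0.0997%) in KO replicate 1, 132 pairs (0.025%) in KO replicate 2, 3957 pairs (0.75%) in WT replicate 1 and 3588 pairs (0.68%) in WT replicate 2. The 269 pairs (0.051%) chosen in KO replicate 1 for a higher plus strand averaged 34.0% on the plus and 2.03% on the minus strand in KO replicate 2, with the same direction in 265. The 1965 pairs (0.373%) chosen in the same way in WT replicate 1 averaged 83.2% on the plus and 12.9% on the minus strand in WT replicate 2, with the same direction in 1956. Those 1965 pairs averaged 30.1% and 4.83% in KO replicate 1 and 19.6% and 3.26% in KO replicate 2.

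The share of pairs called in WT cells was 3.98% of the 20270 pairs at 20 to 40%, 10.1% of the 23308 pairs at 40 to 60%, 3.51% of the 29962 pairs at 60 to 80% and 0.0448% of the 111628 pairs at 80% or more. The level limits the difference that a pair can show: a pair free of methylation on one strand and full on the other averages 50%, and the largest WT difference at 80% or more was 39.2 points. Part of this order, and of the ratio to counting error by level, is therefore fixed by the binning. Without pairs that have a cytosine listed 147 to 150 bp away, the WT shares were 2.37% at 20 to 40%, 2.77% at 40 to 60% and 3.11% at 60 to 80%, so the peak at 40 to 60% was not seen among them. In KO cells 357 of the 60835 pairs at 20 to 40% (0.587%) were called, and 0.114% of those without such a cytosine. The share called varied by chromosome between 0.0922% (chromosome 4) and 0.276% (chromosome 18) in KO cells and between 0.657% (chromosome 11) and 1.07% (chromosome 16) in WT cells.

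The 3 pairs with the largest KO difference in each direction were among those with at least 20 calls per strand in every library. Their adjusted p-values belong to pairs picked for large differences and depend on the form of the test. The newer edgeR form called 0 pairs in KO and 3 in WT cells. With 2 libraries per genotype, these p-values do not measure the spread between separate cultures. At chr13:31788159-31788160 (mm9) the plus strand held 80.0% and 54.4% in KO libraries and 96.6% and 95% in WT libraries. Its minus strand held no methylated call among 179 in the 4 libraries. The KO difference was 67.2 ± 18.1 points (SD, n = 2; edgeR adjusted p = 2e-10). At chr5:44540625-44540626 the order was reversed: the minus strand held 87.1% and 69.7% in KO libraries and 94.6% and 96.7% in WT libraries, and the plus strand held 1 methylated call among 124. Its KO difference was -78.4 ± 12.3 points (SD, n = 2; edgeR adjusted p = 1.32e-10). The pair at chr5:44540476-44540477, 149 bp away, had the plus strand higher, with 67.6% and 57.5% in KO libraries and 87.5% and 92.9% in WT libraries, and no methylated call among 125 on its minus strand. These 2 CpGs differed in opposite directions. The others in KO cells were chr3:132658237-132658238, chr12:5063301-5063302 and chr13:53804684-53804685, with KO differences of 63.8, -73.5 and -72.9 points.

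In WT cells the 6 pairs chosen in the same way all had one strand at 100% and the other at 0% in both libraries. At chr3:8944135-8944136 the plus strand held 48.5% and 53.3% in KO libraries and 100% in each WT library, and the minus strand held no methylated call among 148 (edgeR adjusted p = 1.52e-22). At chr1:169100629-169100630 the minus strand held 48.7% and 28.3% in KO libraries and 100% in each WT library, and the plus strand held no methylated call among 112 (edgeR adjusted p = 7.21e-23). The others were chr8:18471407-18471408, chr9:49807410-49807411, chr13:74501229-74501230 and chr17:50137260-50137261. In all 6 the lower strand was at 0 in the KO libraries as well. Since the choice put the higher strand at 100% in WT cells, its KO level could not lie above that. The limits given for the adjusted p-values of the KO pairs hold for these pairs too.

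The strand differences had a fixed spacing. Where 2 pairs lay 148 or 149 bp apart, the mean product of their strand differences, read in different libraries, was negative. It was -25.7 and -30.1 squared points in KO cells, against -284 and -371 squared points in WT cells. At 147 and 150 bp it was -1.50 and -0.461 in KO cells and -11.7 and -5.43 in WT cells. At the 97 distances from 100 to 200 bp outside 147 to 150 bp it lay between -0.721 and 0.545 in KO cells and between -1.84 and 1.04 in WT cells. Of 21349 couples of pairs 148 or 149 bp apart, 112 in KO cells and 1013 in WT cells had both pairs called. In every couple with both called, the pair with the lower coordinate had the plus strand higher and the other pair had the minus strand higher. This pattern was noticed in these data and no test was made of it.

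Seen from single calls, the spacing pointed to the side of the strand that read lower. A cytosine was listed 148 or 149 bp away on the side of the lower strand at 78.0% of the KO calls with the plus strand higher and 74.2% of those with the minus strand higher. In WT cells the shares were 53.6% and 52.1%. On the other side they were 0.836% and 0.783% in KO cells and 1.85% and 1.73% in WT cells, and over all pairs 14.4% on either side. Of the 12 pairs named above, 10 had such a cytosine on the side of the lower strand. What lies at this spacing was not tested, and neither was the part of the filled-in MspI ends in this pattern.

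**Figure D5:**
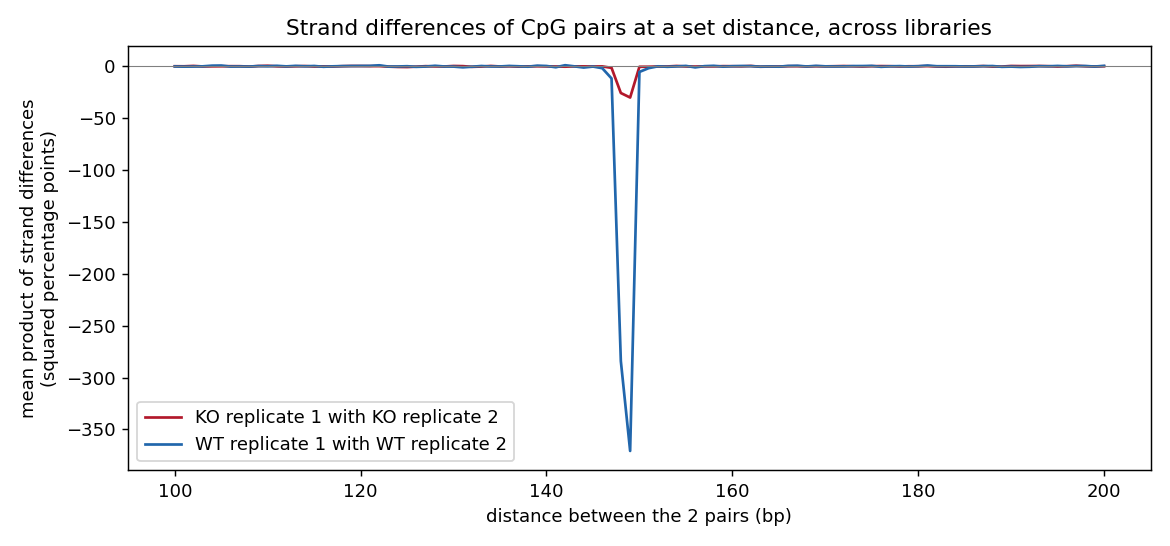
Mean product of the strand differences of 2 CpG pairs (vertical axis, squared percentage points), one read in replicate 1 and the other in replicate 2 of KO or WT cells, against the distance between the pairs (bp). Values lie near 0 except around 148 and 149 bp, where they reach -30.1 in KO cells and -371 in WT cells.

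Part of the disagreement remained without these pairs. Of the pairs with no cytosine listed 147 to 150 bp away, 135 of 324881 (0.0416%) were called in KO cells and 1830 (0.563%) in WT cells. Of those with one, 607 of 202488 (0.30%) were called in KO cells and 2649 (1.31%) in WT cells. The ratio to counting error at 40 to 50% averaged 1.26 ± 0.0014 in KO cells and 2.09 ± 0.25 in WT cells without these pairs, against 1.30 ± 0.022 and 4.44 ± 0.51 over all pairs (SD, n = 2 each). In WT cells the difference was still above counting error, and the shared difference of the WT libraries was 28.2 squared points, against 9.25 for the KO libraries.

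The share called was highest where the strands differed most in depth. In the 2633 pairs whose strands differed in depth by at least 4 times, 0.874% were called in KO cells and 3.08% in WT cells. In the classes up to 1.25, 1.5, 2 and 4 times, the share was 0.139%, 0.135%, 0.137% and 0.134% in KO cells, which differ little, and 0.667%, 0.737%, 0.941% and 1.42% in WT cells. The ratio to counting error in the uneven class was 1.74 and 1.60 in KO cells, against 4.52 and 4.12 in WT cells. In that class the deeper minus the shallower strand was -0.12 ± 0.086 points in KO cells and 0.36 ± 0.00033 points in WT cells (SD, n = 2 each). In the other classes it ran from -0.21 to -0.039 points in KO cells and from -0.15 to -0.025 points in WT cells, so the WT sign of the uneven class was not shared. The part of unequal strand depth in the strand differences was not tested.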

How the data were processed

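The authors deposited 1 table per library with the percent methylation of each listed cytosine and the counts of methylated and unmethylated calls; the percent was not used. Per the submitters' processing notes, Trim Galore, Bismark 0.10.1 and build mm9 were used; how reads were trimmed and whether duplicates were removed is not given in the sources used here. Per the labels' protocols, DNA was cut with MspI and its ends were filled in with added dGTP and dCTP before bisulfite conversion. Calls are not molecules, so the counting errors cover counting only. Coordinates are 1-based in mm9; no annotation of that build was used, so no gene is given.

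At each pair the lower position was taken as the plus strand. Counting variance was taken given the margins (hypergeometric). edgeR 4.0.16 (R 4.3.3) fitted a term per library and strand, the methylated state per genotype and its interaction with strand. This departs from the plan in setting the dispersion to 0 (quasi-binomial), in using edgeR's legacy quasi-likelihood form and in requiring 16 calls of the rarer state. About 6 edgeR forms were tried, because the planned one recovered few of the changes put into simulated counts. The form was chosen on simulated data, after the calls of some forms on the real data had been seen. The simulated counts had an assumed spread and equal levels on both strands at most pairs. A form with the methylated state per library was used for a time and set aside, since it called more unchanged pairs in the simulated KO minus WT contrast. limma 3.58.1, Fisher's exact test and other thresholds served as alternatives. Library values were compared with exact permutation tests (scipy 1.17.1). Named pairs were the 3 largest differences in each direction among called pairs with at least 20 calls on each strand in every library, and both libraries of the genotype on the same side; pairs under 1 kb apart counted as 1 within a direction, not across directions.

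Members and lists were chosen with earlier results of these data known. The spacing of 147 to 150 bp and the level classes were chosen after seeing the data.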

Additional observations from a re-analysis of the deposited data

How the results depend on the processing

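Of the alternatives, the form of the edgeR test mattered most. The calls numbered 742 in KO and 4479 in WT cells as reported. The form as first written gave 259 in KO and 3398 in WT cells, and edgeR's newer quasi-likelihood form gave 0 and 3, with 0 KO minus WT calls. The methylated state per library gave 1132, 4916 and 17 KO minus WT calls. These 3 forms were added after seeing the data; of the 742 KO calls, the form as first written kept 258, and the cause of the difference was not tested. limma gave 664, 3736 and 0. Fisher's exact test on pooled counts gave 1483 and 5516. A minimum of 5 calls gave 807 and 6528, from more pairs, and a minimum of 20 calls gave 429 and 1645, from fewer. With 1 library left out, the KO calls ranged from 95 to 467, the WT calls from 2420 to 5060 and the KO minus WT calls from 0 to 6. Same-numbered libraries are not paired by the labels, and their deviations in strand difference correlated at -0.0028. With the replicate block there were 551 calls in KO, 4163 in WT and 0 KO minus WT.

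Without pairs that have a cytosine listed 147 to 150 bp away, also added later, calls adjusted over the remaining pairs numbered 90 in KO and 1708 in WT cells. The KO minus WT level was then -28.0 points, its plus minus minus part 0.0135, the ratio to counting 1.22 in KO and 1.57 in WT cells, and the shared WT product 28.2. The ratio was 1.25, 1.35 and 1.33 in KO cells at a minimum of 5 calls, of 20 calls and with pairs thinned to over 200 bp apart. In WT cells it was 2.78 when thinned and 2.09 with strand depths within 1.5-fold. The shared product, judged by a tolerance of 10% since it has no spread, was 11.4, 7.96, 19.3 and 8.02 in KO cells and 62.1, 36.6, 116 and 42.0 in WT cells at 5 calls, 20 calls, thinned and with touching pairs kept.

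Among pairs whose strand depths differ by at least 2 times, the deeper minus the shallower strand averaged -0.206 points in KO and -0.123 points in WT cells. It was -0.111, -0.413 and -0.350 in KO cells at 5 calls, at 20 calls and without the spaced pairs. In WT cells it turned to 0.211 at 5 calls and was -0.477 and -0.258 under the others. Pairs minus other cytosines, -1.96 in KO and -6.39 in WT cells, was -2.92 and -9.30 at 5 calls and -0.410 and -1.57 at 20 calls. Depth limits single pairs: at 40 to 50%, counting alone gives a strand difference of 13.9 points in KO replicate 1 and 12.9 points in WT replicate 1.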
